A study of Mus musculus with 8 samples.

Results

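The gene-level counts of 10 enzymes that feed or use the one-carbon pool of the cell were followed in R1 mouse embryonic stem cells (ESCs). The 10 genes were chosen by symbol (Tdh, Gcat, Gldc, Shmt1, Shmt2, Mthfd1, Mthfd2, Mthfd1l, Phgdh and Psat1), and all 10 were found among the 24421 genes of the count tables. R1 is an established male mouse ESC line, and no allele or transgene was given for any group. Undiff cells had received no retinoic acid (RA), a vitamin A derivative that drives ESC differentiation. Day4 cells had been treated with RA for 4 days after 4 days of growth as embryoid bodies, which are free-floating aggregates of differentiating cells. The RA dose is 2 µM in the series text and in the methods and 2 mM in the sample labels. The methods describe the Undiff cells as kept in medium with leukaemia inhibitory factor, while the sample labels call the tissue of all libraries embryoid bodies. By the methods, RA, aggregation, withdrawal of that factor and time in culture differ together between the groups and cannot be told apart. By the labels, aggregation would be shared by the groups. Each state was sequenced with ONT Direct RNA, in which the RNA strand itself is read (500 ng of polyadenylated RNA), and with ONT cDNA, in which a copy is read (50 ng), each in 2 biological replicates, giving 8 libraries in 4 groups. The paper states that RNA of the duplicate samples went into both kits, so calls on both platforms do not come from separate cultures. Which libraries share a culture is not stated.

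One-carbon units are single carbon groups that folate carries for the synthesis of purines, thymidylate and methionine. Most of them come from serine and glycine. Mouse ESCs are known for their dependence on threonine, which the mitochondrial enzyme threonine dehydrogenase (Tdh) oxidises and Gcat then splits into glycine and acetyl-CoA. The glycine cleavage system, with Gldc as its decarboxylating subunit, passes a carbon of glycine to folate. Shmt1 in the cytosol and Shmt2 in mitochondria convert serine and glycine into each other, and Mthfd1 and Mthfd2 change the oxidation state of the carried carbon. Phgdh and Psat1 catalyse successive steps of serine synthesis from glucose.

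The Direct RNA libraries held between 283461 and 907489 reads on genes, the cDNA libraries between 948657 and 2088592, and replicate 2 was the deeper library in every group. Levels are given as CPM, counts per 1000000 reads on genes, and 3 reads corresponded to between 1.44 and 10.6 CPM. The labelled states were checked against 8 markers of pluripotent cells (Pou5f1, Nanog, Sox2, Zfp42, Esrrb, Klf4, Tdgf1 and Dppa5a). Their summed CPM lay between 10656 and 23522 in the Undiff libraries and between 84.97 and 923 in the Day4 libraries, and all 8 were called lower at Day4 on both platforms. In Day4 the sum was larger in replicate 2 than in replicate 1 on both platforms, at 525 against 116 CPM in Direct RNA and 923 against 84.97 CPM in cDNA. Dppa5a alone held 371 of the 525 CPM and 826 of the 923 CPM. The other markers were also higher in Day4 replicate 2 on both platforms, several on few reads, except Klf4 in Direct RNA (6.78 against 7.06 CPM).

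Between states, 6 of the 10 genes were called lower at Day4 on both platforms, namely Tdh, Gldc, Shmt1, Mthfd1, Mthfd2 and Psat1. A gene was called when its DESeq2 adjusted p was at most 0.05, its log2 fold change at least 1 in size and its mean normalised count at least 5. All 10 genes reached that count on both platforms. In Direct RNA 7 of the 10 were called, all lower, while 7.67% of the 9646 genes tested were called lower and 9.54% higher (17.2% in all). In cDNA 6 of the 10 were called, all lower, while 9.24% of the 10271 genes tested were called lower and 8.69% higher (17.9% in all). At the depth of the smallest library fewer of the 10, and fewer of all genes, were called on each platform. Of the 8720 genes tested on both platforms, 452 (5.18%) were called lower on both. The 10 genes were chosen with earlier results of these data known, so these shares are given as a description and not as a test. The median log2 fold change of the 10 genes was -1.86 in Direct RNA and -1.78 in cDNA, beside 0.025 and 0.0019 over all genes tested. Both Undiff libraries lay above both Day4 libraries for 8 of the 10 genes in Direct RNA, where 30.4% of 9964 genes did so, and for 9 of the 10 in cDNA, where 22.2% of 10578 genes did so. These are bulk libraries, in which fewer cells expressing a gene and less of its RNA per cell cannot be told apart.

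**Figure D1:**
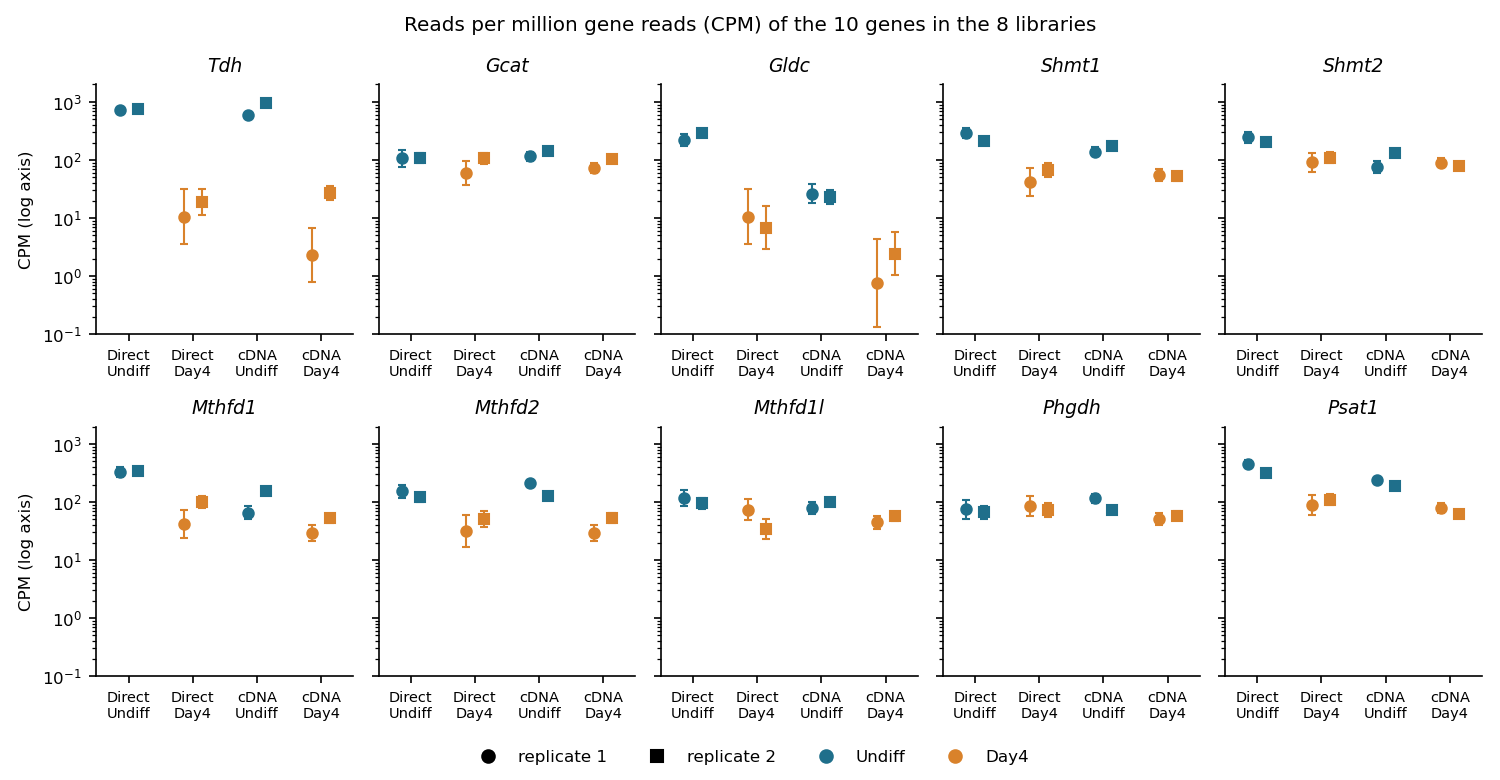
CPM of each of the 10 genes (log axis) in the 8 libraries, grouped by platform and state; circles are replicate 1, squares replicate 2, and bars are 95% Wilson intervals that cover counting error only. Tdh fell from between 606 and 951 CPM in the Undiff libraries to between 2.28 and 27.0 CPM in the Day4 libraries, while Phgdh stayed between 51.6 and 115 CPM.

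Tdh showed the deepest fall. It lies on the minus strand of chromosome 14, at 63492347 to 63509092 of GRCm38, the assembly that mm10 also names (GENCODE identifier ENSMUSG00000021953.14, 9 exons). In Direct RNA its level was 726 and 763 CPM in the Undiff replicates (253 and 692 reads) and 10.6 and 19.0 CPM in the Day4 replicates (3 and 14 reads). In cDNA it was 606 and 951 CPM in Undiff (575 and 1986 reads) and 2.28 and 27.0 CPM in Day4 (3 and 56 reads). Every Undiff library was thus far above every Day4 library, and on both platforms Day4 replicate 2, the replicate with the larger pluripotency sum, held more Tdh than Day4 replicate 1, although in Direct RNA the counting intervals of these libraries overlapped (11.3 to 31.9 and 3.60 to 31.1 CPM). The DESeq2 log2 fold change was -5.48 in Direct RNA (SE 0.46, adjusted p = 4.4e-30), against -5.16 in cDNA (SE 1.11, adjusted p = 0.00011). From summed reads, Tdh was 45.2-fold lower at Day4 in Direct RNA (exact 95% interval 28.1 to 77.9) and 48.5-fold lower in cDNA (37.5 to 63.9), intervals of counting error alone. A lower log2 fold change was found for 0.218% of the genes tested in Direct RNA and for 0.555% of those tested in cDNA. Without cDNA Undiff replicate 2 the call was lost in cDNA (log2 fold change -4.29, adjusted p = 0.066), and without cDNA Day4 replicate 2 the log2 fold change was -7.93. Whether the share of cells that remained pluripotent moved the Day4 values of Tdh was not tested.

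Gcat, which takes up the product of Tdh, was not called on either platform. In Direct RNA it had 106 and 108 CPM in Undiff and 60.0 and 107 CPM in Day4, and in cDNA 115 and 145 CPM in Undiff and 72.8 and 104 CPM in Day4. In Direct RNA the second Day4 library reached the Undiff level, so the groups overlapped, whereas in cDNA both Day4 libraries were below both Undiff libraries. The log2 fold change was -0.41 in Direct RNA (SE 0.50, adjusted p = 0.80), against -0.87 in cDNA (SE 0.43, adjusted p = 0.21). The DESeq2 95% intervals, -1.39 to 0.57 and -1.71 to -0.03, include falls of more than 1 on the log2 scale. Within a library there were between 0.142 and 0.190 Gcat reads per Tdh read in the 4 Undiff libraries. In Day4 there were 5.67 (95% interval 1.64 to 30.2) and 5.64 (3.17 to 10.8) in the Direct RNA replicates and 32.0 (10.6 to 158) and 3.88 (2.88 to 5.30) in the cDNA replicates. The order of these neighbouring enzymes by reads was therefore the opposite in the states, in all 8 libraries.

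The promoters of the genes were searched for motifs because 6 of the genes moved together. RefSeq sequences of GRCm38.p6, from 250 bases before to 50 bases after the start site, were at hand for 9 of the 10 genes. None was at hand for Tdh, so its promoter was not searched. The E-box CACGTG, a palindrome known to be bound by Myc and related factors, was found in 1 of the 9, Gcat, and in 7.15% of all 32851 windows. It starts 2 bases after the start site. The 28 bases around it, chr15:79030865-79030892 on the plus strand, are printed with the E-box in capitals because Gcat was the one gene with a match, and it was not called.
Gcat: cctgcccacgtCACGTGacggggagcac
The motif TGATGNAA, known to be bound by Atf4 and its partners, was searched on both strands and was found in 0 of the 9 and in 3.97% of all windows. A match of letters is a description of the window and not a bound site.

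Gldc fell with Tdh on both platforms. It had 221 and 294 CPM in the Direct RNA Undiff libraries (77 and 267 reads) and 10.6 and 6.78 CPM in the Direct RNA Day4 libraries (3 and 5 reads). In cDNA it was 26.4 and 23.0 CPM in Undiff (25 and 48 reads) and 0.759 and 2.41 CPM in Day4 (1 and 5 reads). The states did not overlap on either platform, and the Day4 values rest on 8 reads in Direct RNA and 6 reads in cDNA. The log2 fold change was -4.87 in Direct RNA (SE 0.61, adjusted p = 5.5e-13), against -3.86 in cDNA (SE 0.86, adjusted p = 0.00021). From summed reads the fall was 35.0-fold (exact 95% interval 17.5 to 81.6) in Direct RNA and 13.6-fold (5.96 to 38.3) in cDNA. Both calls held without any single library, at log2 fold changes from -5.02 to -4.30 in Direct RNA, and in cDNA from -4.09 to -3.16 (the latter without Day4 replicate 1), while at the depth of the smallest library Gldc was no longer called in cDNA (-3.80, adjusted p = 0.12). Of the other subunits of the glycine cleavage system, Gcsh, the lipoyl carrier, fell on both platforms (log2 fold changes -1.57 and -1.67). Dld, the dihydrolipoamide dehydrogenase that other mitochondrial complexes share, had values of 0.18 and 0.20 and was not called. Amt, the aminomethyltransferase, was not called either (-0.89 and -1.51).

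Of the hydroxymethyltransferases, the cytosolic Shmt1 fell on both platforms and the mitochondrial Shmt2 was called in Direct RNA only. Shmt1 had 290 and 213 CPM in Undiff and 42.3 and 66.4 CPM in Day4 in Direct RNA, and 139 and 176 CPM in Undiff and 54.6 and 52.5 CPM in Day4 in cDNA. The states were apart on both platforms, with log2 fold changes of -2.19 (SE 0.44, adjusted p = 3.0e-05) and -1.84 (SE 0.43, adjusted p = 0.00049). The Shmt1 call was lost without Direct RNA Undiff replicate 1 (adjusted p = 0.059) on that platform, and on the other without cDNA Undiff replicate 2 (0.083) or cDNA Day4 replicate 2 (0.11), with log2 fold changes of -2.05, -1.73 and -1.64. Shmt2 had 247 and 203 CPM in Undiff and 91.7 and 109.8 CPM in Day4 in Direct RNA, and 74.8 and 134 CPM in Undiff and 90.3 and 79.0 CPM in Day4 in cDNA. In cDNA the lowest Shmt2 value was thus an Undiff library, and the states overlapped. Its log2 fold change was -1.21 in Direct RNA (SE 0.41, adjusted p = 0.029), against -0.60 in cDNA (SE 0.46, adjusted p = 0.56), and the difference between platforms, 0.62, had an interval of -0.56 to 1.80. The Direct RNA call of Shmt2 was lost when any one of the 4 libraries was left out (log2 fold change between -1.35 and -1.02, adjusted p between 0.25 and 0.50) and with the replicate number as a block (-1.20, adjusted p = 0.17).

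The ratio of Shmt2 to Shmt1 reads, which needs no scaling between libraries, was below 1 in all 4 Undiff libraries (0.851 and 0.953 in Direct RNA, 0.538 and 0.763 in cDNA). It was above 1 in all 4 Day4 libraries (2.17 and 1.65 in Direct RNA, 1.65 and 1.505 in cDNA). The exact 95% intervals of the Day4 ratios all lay above 1, the lowest from 1.06 to 4.71, while those of both Direct RNA Undiff libraries included 1. By reads the mitochondrial form was thus the larger of the pair in the Day4 libraries only, whereas per kilobase of transcript it was also the larger in Direct RNA Undiff (98.2 against 87.9 CPM per kb). Opposite-strand exons overlap 184 bases of Shmt1 (Smcr8) and 16 bases of Shmt2 (Ndufa4l2), as well as 66 bases of Tdh (Gm17232) and 37 bases of Mthfd1 (Gm47525), which matters for cDNA only, for which no source states strand-specific counting.

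**Figure D2:**
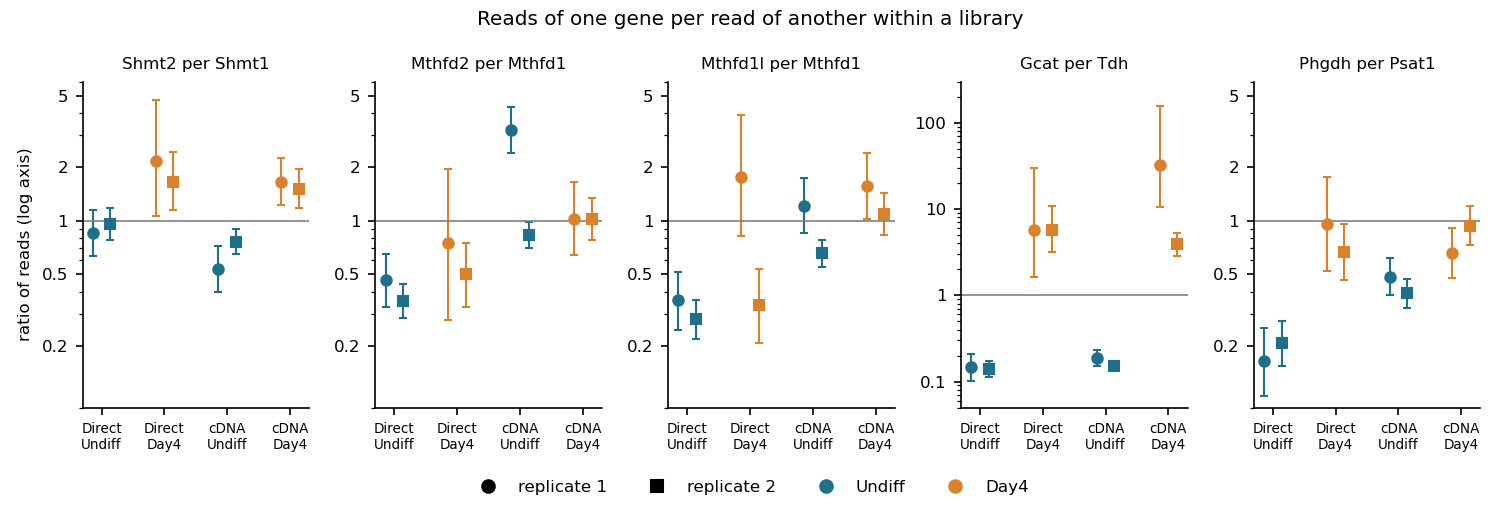
Reads of one gene per read of another within the same library (log axis) for 5 pairs; circles are replicate 1, squares replicate 2, bars are exact 95% intervals of counting error, and the line marks equal numbers of reads. Shmt2 per Shmt1 lies below the line in the 4 Undiff libraries and above it in the 4 Day4 libraries, and Gcat per Tdh moves from at most 0.190 to at least 3.88.

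Among the folate enzymes, Mthfd1, the cytosolic protein with 3 activities, and Mthfd2, the mitochondrial dehydrogenase and cyclohydrolase, fell on both platforms. Mthfd1 had 327 and 337 CPM in Undiff and 42.3 and 100.3 CPM in Day4 in Direct RNA, and 65.4 and 154 CPM in Undiff and 28.8 and 52.0 CPM in Day4 in cDNA. The cDNA groups came close, at 65.4 against 52.0 CPM, without overlap. The log2 fold change was -2.19 in Direct RNA (SE 0.43, adjusted p = 1.4e-05), against -1.72 in cDNA (SE 0.52, adjusted p = 0.012). In cDNA the Mthfd1 call held only when Undiff replicate 1 was the library left out (adjusted p = 0.0078) and not without Undiff replicate 2 (0.62), Day4 replicate 1 (0.39) or Day4 replicate 2 (0.10), with log2 fold changes between -2.20 and -1.08 over the 4 fits. In Direct RNA it was lost without Undiff replicate 2 (-2.12, adjusted p = 0.077), and the log2 fold change ranged from -2.96 without Day4 replicate 2 to -1.71 without Day4 replicate 1.

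Mthfd2 had 152 and 120.1 CPM in Undiff and 31.8 and 50.2 CPM in Day4 in Direct RNA, and 209.8 and 128 CPM in Undiff and 29.6 and 53.0 CPM in Day4 in cDNA. All Undiff libraries were above all Day4 libraries. The log2 fold change was -1.71 in Direct RNA (SE 0.52, adjusted p = 0.013), against -2.33 in cDNA (SE 0.48, adjusted p = 4.1e-05). The Direct RNA call was lost in each of the 4 fits that left out a library (log2 fold change between -2.05 and -1.38, adjusted p between 0.13 and 0.39) and with the replicate block (-1.70, adjusted p = 0.13), whereas the cDNA call held in each (adjusted p between 0.00074 and 0.035).

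Mthfd1l, which releases formate from the mitochondrial branch, was lower in every Day4 library but did not pass. It had 118 and 94.8 CPM in Undiff and 74.1 and 33.9 CPM in Day4 in Direct RNA, and 79.1 and 101 CPM in Undiff and 44.8 and 56.3 CPM in Day4 in cDNA. The log2 fold change was -1.10 in Direct RNA (SE 0.55, adjusted p = 0.23), against -1.14 in cDNA (SE 0.46, adjusted p = 0.095). With the quasi-likelihood test of edgeR it was called on both platforms (log2 fold change -1.13, adjusted p = 0.033, and -1.17, adjusted p = 0.029), and with DESeq2 it was called in cDNA when genes needed at least 10 reads in 2 libraries (-1.15, adjusted p = 0.0496). It is the gene by which the edgeR counts, 8 of 10 in Direct RNA and 7 of 10 in cDNA, exceed those of DESeq2. Over all genes edgeR also called more, with 14.9% of 8420 genes lower in Direct RNA and 14.3% of 9175 in cDNA.

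In serine synthesis, Psat1, the phosphoserine aminotransferase, fell on both platforms and Phgdh, the dehydrogenase of the step before it, was called on neither. Psat1 had 453 and 321 CPM in Undiff and 88.2 and 109.8 CPM in Day4 in Direct RNA, and 236 and 188 CPM in Undiff and 78.1 and 62.1 CPM in Day4 in cDNA. The states were well apart, with log2 fold changes of -1.999 (SE 0.38, adjusted p = 5.2e-06) and -1.88 (SE 0.43, adjusted p = 0.00040). Without cDNA Day4 replicate 2 the cDNA call was lost (-1.57, adjusted p = 0.12). Phgdh had 74.6 and 66.1 CPM in Undiff and 84.7 and 73.2 CPM in Day4 in Direct RNA, where the states overlapped. In cDNA it had 115 and 73.7 CPM in Undiff and 51.6 and 58.2 CPM in Day4, without overlap. The log2 fold change of Phgdh was 0.056 in Direct RNA (SE 0.53, adjusted p = 0.98), against -1.09 in cDNA (SE 0.48, adjusted p = 0.14). There were between 0.165 and 0.487 Phgdh reads per Psat1 read in the Undiff libraries and between 0.660 and 0.960 in the Day4 libraries.

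The Phgdh values carry an uncertainty of their own. The Phgdh transcript shares stretches of at least 300 bases with GENCODE transcripts of 22 other genes, of which Gm7901 is 98.7% identical over 1597 bases. Only Gm6756 and Gm8096 of these were in the count table, both with 0 reads in all 8 libraries, so reads from the other copies could have been placed at Phgdh or lost. Tdh resembles 1 such gene, Gm13929 (97.1% over 1125 bases), and Psat1, Shmt2 and Mthfd1l also 1 each, at between 85.4% and 91.0%.

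**Figure D3:**
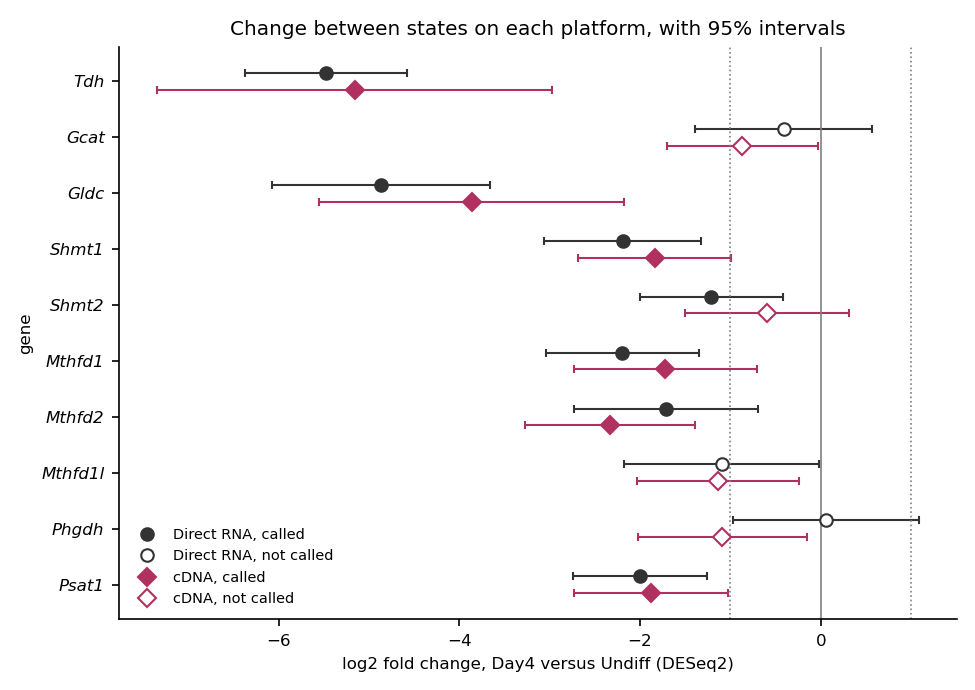
DESeq2 log2 fold change of Day4 versus Undiff for each gene on each platform, with 95% intervals; filled symbols were called, open symbols were not, and dotted lines mark a log2 fold change of 1 in either direction. Tdh and Gldc lie between -5.48 and -3.86, the other called genes between -2.33 and -1.21, and Phgdh has its Direct RNA value at 0.056.

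Together the 10 genes took 2617 ± 138 CPM (SD, n = 2) in Direct RNA Undiff and 606 ± 99.2 CPM in Direct RNA Day4, a level 4.32-fold lower. In cDNA they took 1870 ± 288 CPM in Undiff and 500.3 ± 65.9 CPM in Day4, 3.74-fold lower. Leaving Tdh out, the sums were still 3.17-fold and 2.25-fold lower at Day4. Tdh alone held 26.7% and 30.3% of the reads of the 10 genes in the Direct RNA Undiff libraries and 36.4% and 45.8% in the cDNA Undiff libraries. At Day4 its share was between 0.502% and 4.93% over the 4 libraries.

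**Figure D4:**
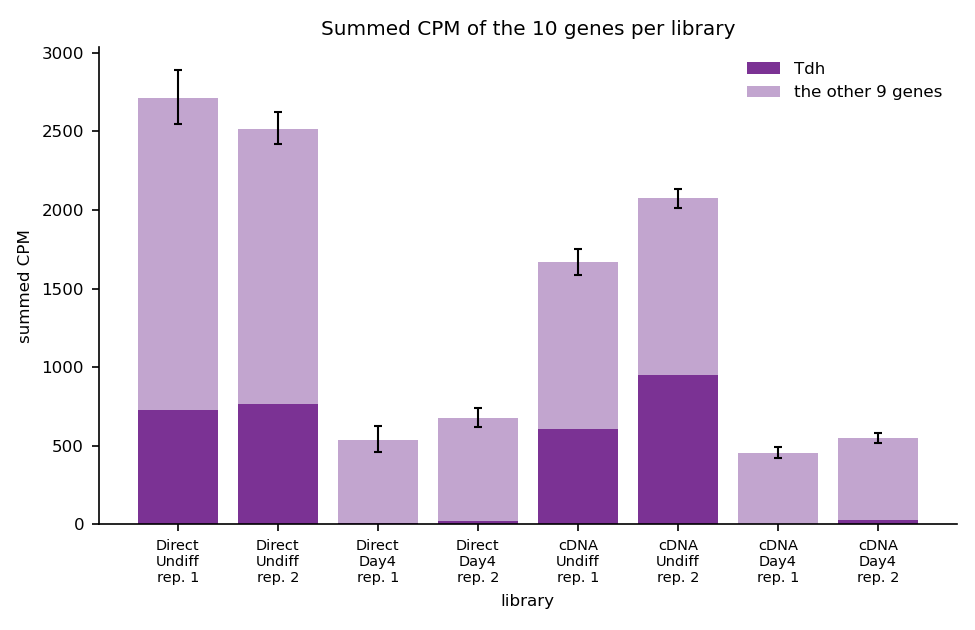
Summed CPM of the 10 genes in each library, split into Tdh and the other 9 genes; error bars are 95% Wilson intervals of the sum. The 4 Undiff libraries stand between 1667 and 2715 CPM and the 4 Day4 libraries between 454 and 677 CPM.

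To compare the genes with one another, CPM was divided by the length of the longest coding transcript in kilobases. Where a long read is counted about once per molecule, this division favours short transcripts, so the order depends on the scale. In Undiff Tdh had the highest level on this scale, with 396 CPM per kb in Direct RNA and 414 in cDNA. At Day4 Tdh was the second lowest on both platforms (7.86 and 7.77 CPM per kb), and Gldc was the lowest (2.30 and 0.420). The first place at Day4 went to Shmt2 in Direct RNA (44.0 CPM per kb, followed by Phgdh with 41.7) and to Gcat in cDNA (37.4, followed by Shmt2 with 37.0). On both platforms these neighbours differed by less than the spread between replicates, and by CPM without the division Psat1 (99.0) came next to Shmt2 (101) in Direct RNA Day4.

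Whether the platforms recorded the same change was tested directly as the interaction of platform and state in DESeq2. None of the 10 genes was called at an adjusted p of at most 0.05, none had an unadjusted p under 0.05, and edgeR also called 0 of them. Over all genes 2 of 17267 (0.0116%) were called by DESeq2, also 2 by edgeR, and 161 had an unadjusted p under 0.05. The difference (cDNA minus Direct RNA) was furthest from 0 for Phgdh, at -1.20 on the log2 scale (SE 0.68, 95% interval -2.54 to 0.14, unadjusted p = 0.079). For Tdh the difference was -0.44 with an interval of -3.15 to 2.27, and for Gldc 0.89 with an interval of -1.20 to 2.98, so that differences of several fold could not be detected for these genes. The narrowest interval, that of Psat1, ran from -1.06 to 1.25.

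Between platforms, with state as a covariate, Gldc was the one gene of the 10 that passed all thresholds, and it was lower in cDNA. Its log2 fold change of cDNA versus Direct RNA was -2.30 (SE 0.39, adjusted p = 3.0e-08), and no cDNA library reached the Direct RNA libraries of its own state. Of all 10426 genes tested, 51.3% were called between platforms, 24.7% higher and 26.6% lower in cDNA. Gcat (0.88, adjusted p = 0.0019), Mthfd2 (0.91, adjusted p = 0.017) and Mthfd1l (0.64, adjusted p = 0.037) were higher in cDNA by an adjusted p of at most 0.05 but by less than the fold threshold. Without Direct RNA Day4 replicate 2, 3 genes were called, since Gcat (1.13) and Mthfd2 (1.12) then passed it. Mthfd2 also passed without cDNA Undiff replicate 2 (1.05) or cDNA Day4 replicate 1 (1.08).

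The surrounding pathway was described with 40 further genes in 6 lists. In Direct RNA 34 of them had a mean normalised count of at least 5, of which 8 were called lower and 0 higher, and in cDNA 31 did, of which 8 were called lower and 0 higher, beside 7.67% and 9.24% of all genes tested that were called lower. With so few genes in a list, counts such as 1 of 12 lie near these shares. Their median log2 fold change was -0.69 in Direct RNA and -0.85 in cDNA. Called lower on both platforms were 6: Gcsh, named above, Folr1, Cth, Ppat, Gart and Pfas. Called in Direct RNA only were Mat2a (-1.54), the synthase of S-adenosylmethionine, and Atic (-1.22), the last enzyme of purine synthesis. Called in cDNA only were Cbs (-3.97), which opens transsulfuration, and Aldh1l1, a cytosolic formyl-folate dehydrogenase whose mean count in Direct RNA was below 5. Aldh1l1 had 6 and 14 reads in the cDNA Undiff libraries and 0 reads in both cDNA Day4 libraries, so that its fitted log2 fold change of -4.36 is not a bound on the fall.

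Purine synthesis, which consumes formyl-folate, had 4 of its 6 listed enzymes called lower in Direct RNA and 3 of 6 in cDNA. Gart, which carries the first formyl transfer, had 620 and 636 CPM in Undiff and 109 and 111 CPM in Day4 in Direct RNA, and 188 and 339 CPM in Undiff and 60.7 and 83.3 CPM in Day4 in cDNA. All its Day4 libraries were lower than its Undiff libraries, with log2 fold changes of -2.58 and -2.15. Ppat, the first committed enzyme, had -1.62 and -1.67, and Pfas had -2.73 and -1.996. Paics (-0.50 and -0.40) and Adsl (-0.68 and -0.81) were not called.

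In the methionine cycle and transsulfuration, 2 of 7 tested genes were called lower in Direct RNA and 2 of 8 in cDNA. Cth, which makes cysteine from cystathionine, had 97.6 and 134 CPM in Undiff and 7.06 and 14.9 CPM in Day4 in Direct RNA, and 43.2 and 128 CPM in Undiff and 6.07 and 25.5 CPM in Day4 in cDNA. The states did not overlap, and the log2 fold changes were -3.21 and -2.65. Among the other folate enzymes and carriers, 1 of 12 in Direct RNA and 2 of 10 in cDNA were called lower. Folr1, a folate receptor, was the one called on both, with log2 fold changes of -2.80 in Direct RNA and -3.75 in cDNA. Tyms (-0.62 and -0.45), the thymidylate synthase, was not called. In serine synthesis, breakdown and uptake 0 of 5 and 0 of 3 tested genes were called, and Sds had 0 reads in all 8 libraries. Among the genes tested in Direct RNA, the highest log2 fold change was that of Srr, the serine racemase (2.63, adjusted p = 0.12), which was not called. The lowest was that of Cth in Direct RNA and the fitted value of Aldh1l1 in cDNA. Atf4, a transcription factor known to regulate serine and one-carbon genes, had -0.49 and -0.79 and was not called.

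**Figure D5:**
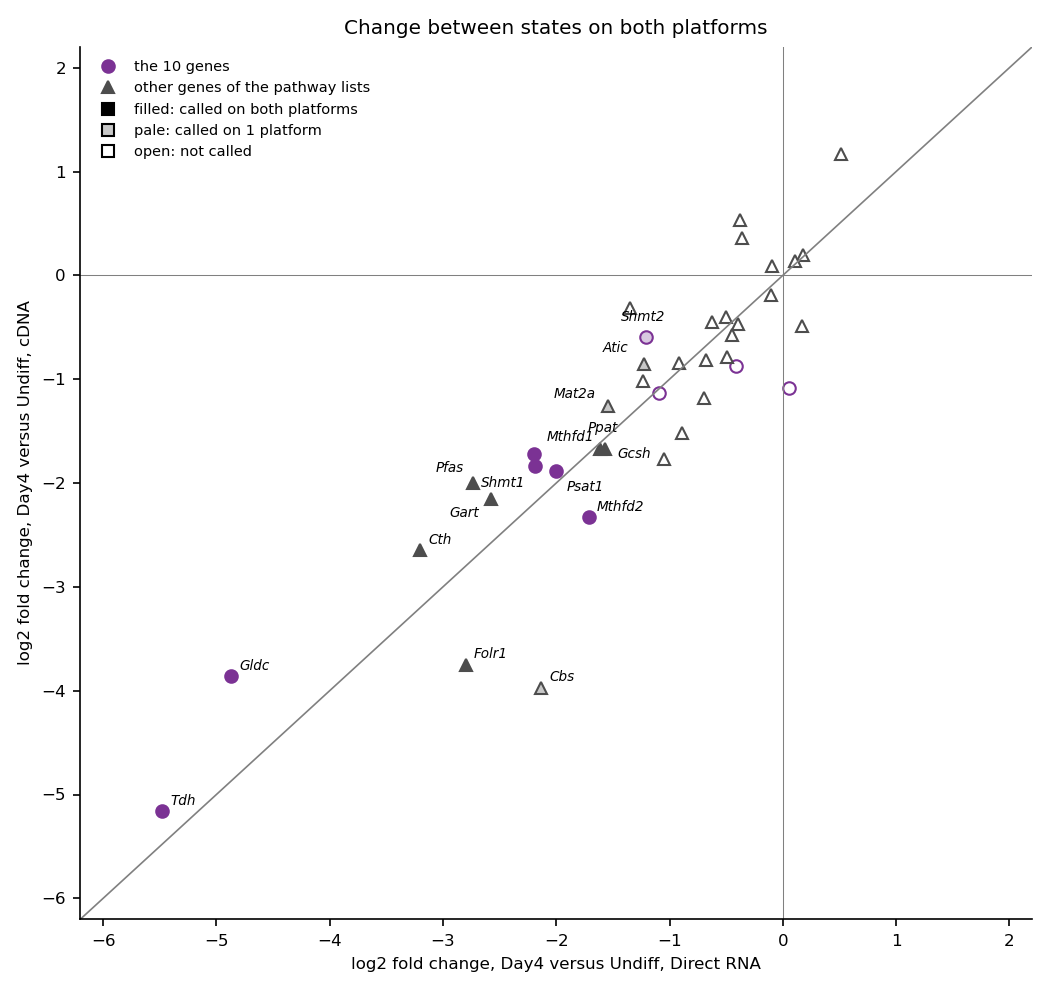
DESeq2 log2 fold change of Day4 versus Undiff in cDNA (vertical axis) against Direct RNA (horizontal axis) for the 10 genes (circles) and the 29 pathway genes with a mean normalised count of at least 5 on both platforms (triangles); the diagonal marks equal values. Called genes, which are named, all lie below 0 on both axes, and Tdh at -5.48 and -5.16 is the farthest from the origin.

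The genes whose pattern was most like that of Tdh were sought over the 8 libraries among 7059 genes with a mean of at least 20 CPM. Likeness was the root mean square difference of log2(CPM + 1), centred on the mean of each platform. Closest were Zfp42 (0.27), Utf1 (0.34), Platr17 (0.35), Lincenc1 (0.37) and Tcl1 (0.45), beside a median of 3.17 over all genes compared. Zfp42 and Utf1 are known markers of undifferentiated ESCs. Zfp42 had 1469 and 1261 CPM in Undiff and 14.1 and 19.0 CPM in Day4 in Direct RNA, and 804 and 1174 CPM in Undiff and 3.03 and 31.3 CPM in Day4 in cDNA. Gldc was the closest of the other 9 genes, at 1.27 and rank 93, and Phgdh the farthest, at 2.96.

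Markers of other cells moved with the state. Of the 8 markers of primitive endoderm, 5 were called higher at Day4 in Direct RNA and 4 in cDNA (Gata6, Gata4, Ttr and Dab2 on both). Their summed CPM lay between 1.05 and 14.3 in Undiff and between 209 and 1051 in Day4, and Afp, Gata6 and Ttr had 0 reads in every Undiff library. Of the 8 markers of mesenchymal cells and feeder fibroblasts, 5 were called higher on both platforms (Col1a1, Col1a2, Col3a1, Pdgfra and Pdgfrb), with sums between 4.79 and 14.3 CPM in Undiff and between 236 and 2903 CPM in Day4. Thy1 went the other way, with log2 fold changes of -1.18 in Direct RNA and -2.85 in cDNA. Thy1, Dcn and Lum had few reads and were not called on either platform. A mean count of at least 5 was reached by 2 of the 8 neural markers in Direct RNA and by 3 in cDNA, and Tubb3 alone was called, lower on both platforms. Nes was higher in every Day4 library than in the Undiff libraries of its platform, without being called (log2 fold changes 1.99, adjusted p = 0.11, and 2.24, adjusted p = 0.16), and the summed CPM of the 8 lay between 73.8 and 178 in Undiff and between 45.3 and 92.2 in Day4. Without Tubb3, which held most of that sum in Undiff, the other 7 summed to between 4.22 and 30.9 CPM in Undiff and between 21.2 and 77.3 CPM in Day4, higher in both Day4 libraries of each platform. Of the 8 markers of dividing cells, Mcm5 was called lower in Direct RNA and Ccnb1 and Mcm2 in cDNA. Mki67 went the other way, with log2 fold changes of 0.15 in Direct RNA and 1.31 in cDNA, and was not called. The other listed markers had negative log2 fold changes on both platforms. The summed CPM of the 8 was lower in both Day4 libraries of each platform. It was 3099 and 2583 in Undiff against 1799 and 1769 in Day4 in Direct RNA, and 1714 and 2037 against 1129 and 1551 in cDNA. The part of cell composition and of proliferation in the falls of the 10 genes was not tested.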

How the data were processed

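The deposited values are raw counts of reads per gene symbol in 8 ONT libraries, as the authors obtained them by running htseq-count, with the UCSC annotation of iGenomes, on reads mapped to mm10 by minimap2 without secondary alignments. Direct RNA was counted by strand. For cDNA the strand use of the gene counts is not stated, while the exon counts of the study ignored strand for it. Each file holds 24421 genes and 5 counters of unassigned reads, which stayed out of library sizes and tests; genes took between 38.3% and 61.9% of all reads listed. The 10 genes and the gene lists were chosen with earlier results of these data known. The named genes were the 10, the pathway genes called alike on both platforms or at the extremes, and the 5 genes most like Tdh; other names were added to complete a list.

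All genes were tested with DESeq2 1.42.0 (Wald test, shrunken log2 fold changes, Cook's cutoff and independent filtering off, as in the study's methods) for each platform, with Benjamini-Hochberg adjustment. The interaction was fitted without shrinkage. The alternatives included edgeR 4.0.16, TMM factors, a minimum of 10 reads in 2 libraries, thinning to 283461 reads, a replicate block and leaving out each library. The fits were also run on simulated counts with the same dispersion for every gene. That run checks the code and not the calls in these data. Replicates of a group differed by more than sampling noise (chi-square per degree of freedom between 2.68 and 14.9). Wilson and exact intervals cover counting error only, whereas those of log2 fold changes come from the DESeq2 standard errors and include the spread between replicates. Gene positions and transcripts are from GENCODE vM21, and similar transcripts were found with BLAST+ 2.17.0. Values of a few genes of the lists are not reported here.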

Additional observations from a re-analysis of the deposited data

How the results depend on the processing

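With 2 replicates a group, a fit without 1 library leaves its group with a lone sample, which is assumed to vary like the other group, and between states fewer genes were then called over all genes whichever library was left out. Leaving out each library in turn gave 4 to 5 called genes of the 10 in Direct RNA (4 without either Undiff replicate), 3 to 6 in cDNA (3 without Undiff replicate 2 or Day4 replicate 2) and 1 to 3 between platforms, and over all genes 393 to 797, 709 to 1020 and, for the interaction, 0 to 13. Tdh, Gldc and Psat1 in Direct RNA and Gldc and Mthfd2 in cDNA were called in each of these fits. Over all genes edgeR called 2993 in Direct RNA and 2818 in cDNA. Thinning to the smallest library left 1006, 476, 0 for the interaction and 3331 between platforms, and 2 of the 10 in cDNA (Tdh and Mthfd2) and 5 in Direct RNA. The calls lost had log2 fold changes of -3.80 for Gldc, -1.42 for Shmt1, -1.40 for Mthfd1 and -1.68 for Psat1 in cDNA, and -1.15 for Shmt2 and -1.67 for Mthfd2 in Direct RNA. At that depth fewer reads are tested. TMM factors left 1 gene in the interaction. With denominators that leave out the 100 most abundant genes, the summed CPM of the 10 was 3353 in Undiff and 768 in Day4 with Direct RNA, and 2661 in Undiff and 664 in Day4 with cDNA.

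The direction of small values was not stable. Phgdh in Direct RNA was -0.28 after thinning and between -0.019 and 0.14 without single libraries. The interaction of Mthfd1l was 0.076 with edgeR, 0.11 with TMM factors and 0.017 with the replicate block, and that of Gldc -0.060 after thinning. Without single libraries the interaction ranged from -2.97 to 0.29 for Tdh, -0.80 to 0.091 for Gcat, -0.11 to 1.25 for Gldc, -0.52 to 0.55 for Mthfd1l and -0.25 to 0.39 for Psat1. Between platforms Shmt1 was -0.16, Shmt2 -0.071 and Psat1 -0.12 after thinning, Shmt2 was -0.0036 with edgeR, and without single libraries Shmt2 ranged from -0.074 to 0.27 and Psat1 from -0.024 to 0.21. None of these was called.

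Same-numbered replicates of the states correlated in their deviations with r = 0.21 in Direct RNA and 0.50 in cDNA over 1395 genes, but no source says that a number marks a shared batch. With the replicate block 843 genes were called in Direct RNA and 5 of the 10, and 6 of the 10 stayed called in cDNA. Between platforms r was 0.12 in Undiff and -0.42 in Day4. With the numbers of the cDNA Day4 libraries exchanged, an alternative chosen after seeing the data, the block gave 1 gene in the interaction and 5081 between platforms, with 0 and 1 of the 10.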

Other observations

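A few pathway genes had levels that followed the platform or a single library more than the state. Pfas, an amidotransferase of purine synthesis, had between 3.53 and 51.8 CPM in the Direct RNA libraries and between 311 and 1714 CPM in the cDNA libraries, a log2 fold change between platforms of 5.77. Mthfd2l, a relative of Mthfd2, had between 4.41 and 45.9 CPM in Direct RNA and 0 reads in 3 of the 4 cDNA libraries. Amt had 0 reads in replicate 1 of both Direct RNA groups, where 3 reads would be 8.61 CPM in Undiff and 10.6 CPM in Day4, and 62.8 CPM in Undiff replicate 2 and 6.78 CPM in Day4 replicate 2. Among the 10 genes, Mthfd2 had 3.21 reads per Mthfd1 read (exact 95% interval 2.40 to 4.34) in cDNA Undiff replicate 1 and between 0.356 and 1.03 in the other 7 libraries.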
